A study of Arabidopsis thaliana with 28 samples.

Results

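The genes described here are 10 of the 28437 genes in the deposited table: WRKY18, WRKY40, WRKY60, WRKY50, WRKY51, WRKY38, WRKY46, WRKY53, WRKY54 and WRKY70. They were taken by locus, as family members known for their response to salicylic acid (SA), a hormone of plant defence. The rule uses no measured value, but the members were chosen with earlier results of these data known. All 10 were above the filter on low values (at least 1 RPM in at least 3 libraries), which kept 22329 genes. RPM is the number of reads of a gene scaled to a fixed total of mapped reads per library. Whole seedlings of *Arabidopsis thaliana* were collected at 2 weeks of age on half-strength Murashige and Skoog medium, and RNA was sequenced from 3 libraries of each of 8 genotypes. The parents were the accessions Col and C24, each as wild type (WT-Col, WT-C24) and as a mutant of the chromatin remodeler DDM1 (*ddm1*-Col, *ddm1*-C24). Reciprocal hybrids are named with the mother first (WT-ColxC24 and WT-C24xCol in wild type, *ddm1*-C24xCol and *ddm1*-ColxC24 in the mutant), and the 6 hybrid libraries of a background are called WT-F1 or *ddm1*-F1. Both parents of a *ddm1* hybrid carried a *ddm1* mutation. The study used several *ddm1* alleles, the allele behind the RNA libraries is not given in the sources used here, and homozygous mutants had been kept for few generations.

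WRKY proteins are plant transcription factors that bind the W box, a short DNA element with the core TTGAC, through a domain named after its first residues. SA made in infected or stressed tissue is sensed by NPR proteins, which with TGA factors switch on defence genes including many WRKY genes, and several WRKY proteins in turn raise or restrain that response. The 10 genes fall into 3 structural groups. Group IIa holds WRKY18, WRKY40 and WRKY60, close relatives that bind one another and modulate basal defence. Group IIc members WRKY50 and WRKY51 take part in the repression of jasmonate signalling by SA. Group III is represented by WRKY38, a repressor of basal defence, WRKY46 and WRKY53, which act in defence and, for WRKY53, in leaf senescence, and the close homologues WRKY54 and WRKY70, which restrain SA synthesis and senescence and place WRKY70 between the SA and jasmonate pathways.

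The WRKY heptapeptide is the most conserved stretch of the domain. Its 7 codons are shown from the TAIR10.1 reference (RefSeq), with the sixth codon in capitals, because that codon sets WRKY50 and WRKY51 apart.
WRKY18: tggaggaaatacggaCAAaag
WRKY40: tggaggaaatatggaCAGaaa
WRKY60: tggaggaaatacgggCAAaag
WRKY50: tggagaaagtatgggAAGaag
WRKY51: tggaggaagtatggcAAGaaa
WRKY38: tggaggaaatatggtCAAaag
WRKY46: tggagaaaatatgggCAAaaa
WRKY53: tggagaaaatatggtCAAaaa
WRKY54: tggaggaaatatggaCAAaag
WRKY70: tggaggaaatatggaCAAaag
The capitals encode glutamine in 8 genes and lysine in the 2 group IIc genes. WRKY54 and WRKY70 were identical over these 21 bases.

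The genes lie on all 5 chromosomes. In the TAIR10.1 annotation, WRKY40 (AT1G80840) spans chr1:30383561-30385499 on the plus strand, WRKY60 (AT2G25000) chr2:10629662-10631413 on the plus strand, and WRKY18 (AT4G31800) chr4:15382777-15385100 on the plus strand. Of the group IIc genes, WRKY50 (AT5G26170) spans chr5:9146879-9148391 on the minus strand and WRKY51 (AT5G64810) chr5:25908247-25909881 on the plus strand. All 5 group III genes are on the minus strand: WRKY38 (AT5G22570) at chr5:7495455-7496990, WRKY46 (AT2G46400) at chr2:19043411-19044955, WRKY53 (AT4G23810) at chr4:12392370-12393982, WRKY54 (AT2G40750) at chr2:17000419-17002528 and WRKY70 (AT3G56400) at chr3:20908711-20910623. WRKY40 shares 51 bases with AT1G80850 and WRKY53 shares 341 bases with AT4G23800, both on the opposite strand. Whether the counting used strand is not given in the sources used here, so the values of WRKY40 and WRKY53 are uncertain to that extent. AT1G80850 had mean levels of 7.67 to 14 RPM over the 8 genotypes and AT4G23800 of 32.1 to 51.9 RPM.

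Many WRKY promoters are bound by WRKY and TGA factors, so the 250 bases before the start were searched, and 3 are shown with matches to TTGAC, the W boxes TTGACC or TTGACT, and TGACG (the core bound by TGA factors) in capitals on either strand. They were chosen for holding the full W box (WRKY53) or more than 1 TGACG (WRKY51, WRKY70). The sequences are from TAIR10.1, written in the direction of the gene.
WRKY53, chr4:12393983-12394232, minus strand: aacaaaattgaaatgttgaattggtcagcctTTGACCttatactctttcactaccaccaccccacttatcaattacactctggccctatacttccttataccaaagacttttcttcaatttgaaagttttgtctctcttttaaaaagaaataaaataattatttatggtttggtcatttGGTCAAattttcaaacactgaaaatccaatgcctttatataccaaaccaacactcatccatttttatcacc
WRKY51, chr5:25907997-25908246, plus strand: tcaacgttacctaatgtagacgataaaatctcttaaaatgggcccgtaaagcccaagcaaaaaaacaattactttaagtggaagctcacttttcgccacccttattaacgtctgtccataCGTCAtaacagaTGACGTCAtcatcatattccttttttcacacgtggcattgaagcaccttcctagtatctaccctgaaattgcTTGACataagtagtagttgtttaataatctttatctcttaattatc
WRKY70, chr3:20910624-20910873, minus strand: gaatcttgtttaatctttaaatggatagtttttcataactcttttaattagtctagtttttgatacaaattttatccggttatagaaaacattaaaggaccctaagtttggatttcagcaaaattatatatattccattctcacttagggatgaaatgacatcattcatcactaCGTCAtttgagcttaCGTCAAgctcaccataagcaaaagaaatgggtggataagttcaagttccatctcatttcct
In windows from 250 bases before to 50 after the start, TTGACC or TTGACT was found in 1 of the 10 genes (WRKY53, 2 matches) and in 32.4% of 27443 promoters of the annotation. TTGAC, which both W boxes contain, was found in 7 of 10 and in 50.5% of all promoters. TGACG was found in 4 of 10 (WRKY40, WRKY60, WRKY51, WRKY70) and in 23.1%. It overlaps TTGAC where the letters read TTGACG, as in WRKY70. All matches of WRKY60 reached or lay past the start, and its 250 bases before the start held 0 TTGAC and 0 TGACG. WRKY51 and WRKY70 held more than 1 TGACG, as did 4.44% of all promoters. These are matches of letters and not measured binding sites.

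The *DDM1* transcript was lower in *ddm1*-Col (2.6, 1.7 and 2.6 RPM) than in WT-Col (6.3, 9.5 and 12.6 RPM). The log2 difference was -1.80 (SE 0.31, adjusted p = 0.0129). No such drop was found in libraries labelled *ddm1*-C24 (6.7, 14.3 and 13.2 RPM) beside WT-C24 (6, 7 and 12.4 RPM). The log2 difference was 0.40 (SE 0.40, adjusted p = 0.777), so directions drawn from those libraries rest on their labels. In *ddm1*-F1 against WT-F1 the transcript was at -0.35 (SE 0.25, adjusted p = 0.744), or adjusted p = 0.0245 with the replicate number as a block. By this transcript, calls in the hybrids rest on their labels as well without the block. Annotated pseudogenes served as a second check of the labels. Of 1734 tested, 1448 rose in *ddm1*-Col, 1304 in the libraries labelled *ddm1*-C24 and 1616 in *ddm1*-F1 (against WT-F1). Of all tested genes 7.82%, 8.61% and 9.23% rose in these comparisons. By this check both mutants and the mutant hybrids differed from their WT in the same direction. Pseudogenes made up 82.9%, 67.8% and 78.4% of the genes that rose. Where these shares stand beside counts below, they therefore exceed the shares among genes that are not pseudogenes. RBCS1A, the small subunit of Rubisco, was at 10368 to 16420 RPM and PYK10, a root glucosidase, at 1175 to 2553 RPM. The leaf markers CAB1 (1647 to 20370 RPM) and LHCB1.1 (55.5 to 4979 RPM), both light-harvesting proteins, varied more, and 2 of the 3 leaf markers were lower in replicate number 3 than in number 1 (median log2 difference -2.85). Flower markers stayed at or under 0.7 RPM each. The sum of 7 seed storage genes was 6.2 to 15.5 RPM in WT-Col and 464.4 to 1871.6 RPM in WT-C24, and 0.7 to 50.1 RPM in *ddm1*-Col and 80.3 to 339.3 RPM in the libraries labelled *ddm1*-C24. Replicates 2 and 3 of the libraries labelled *ddm1*-C24 were the closest of all 276 pairs of libraries (SD of the log2 difference 0.182).

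**Figure D1:**
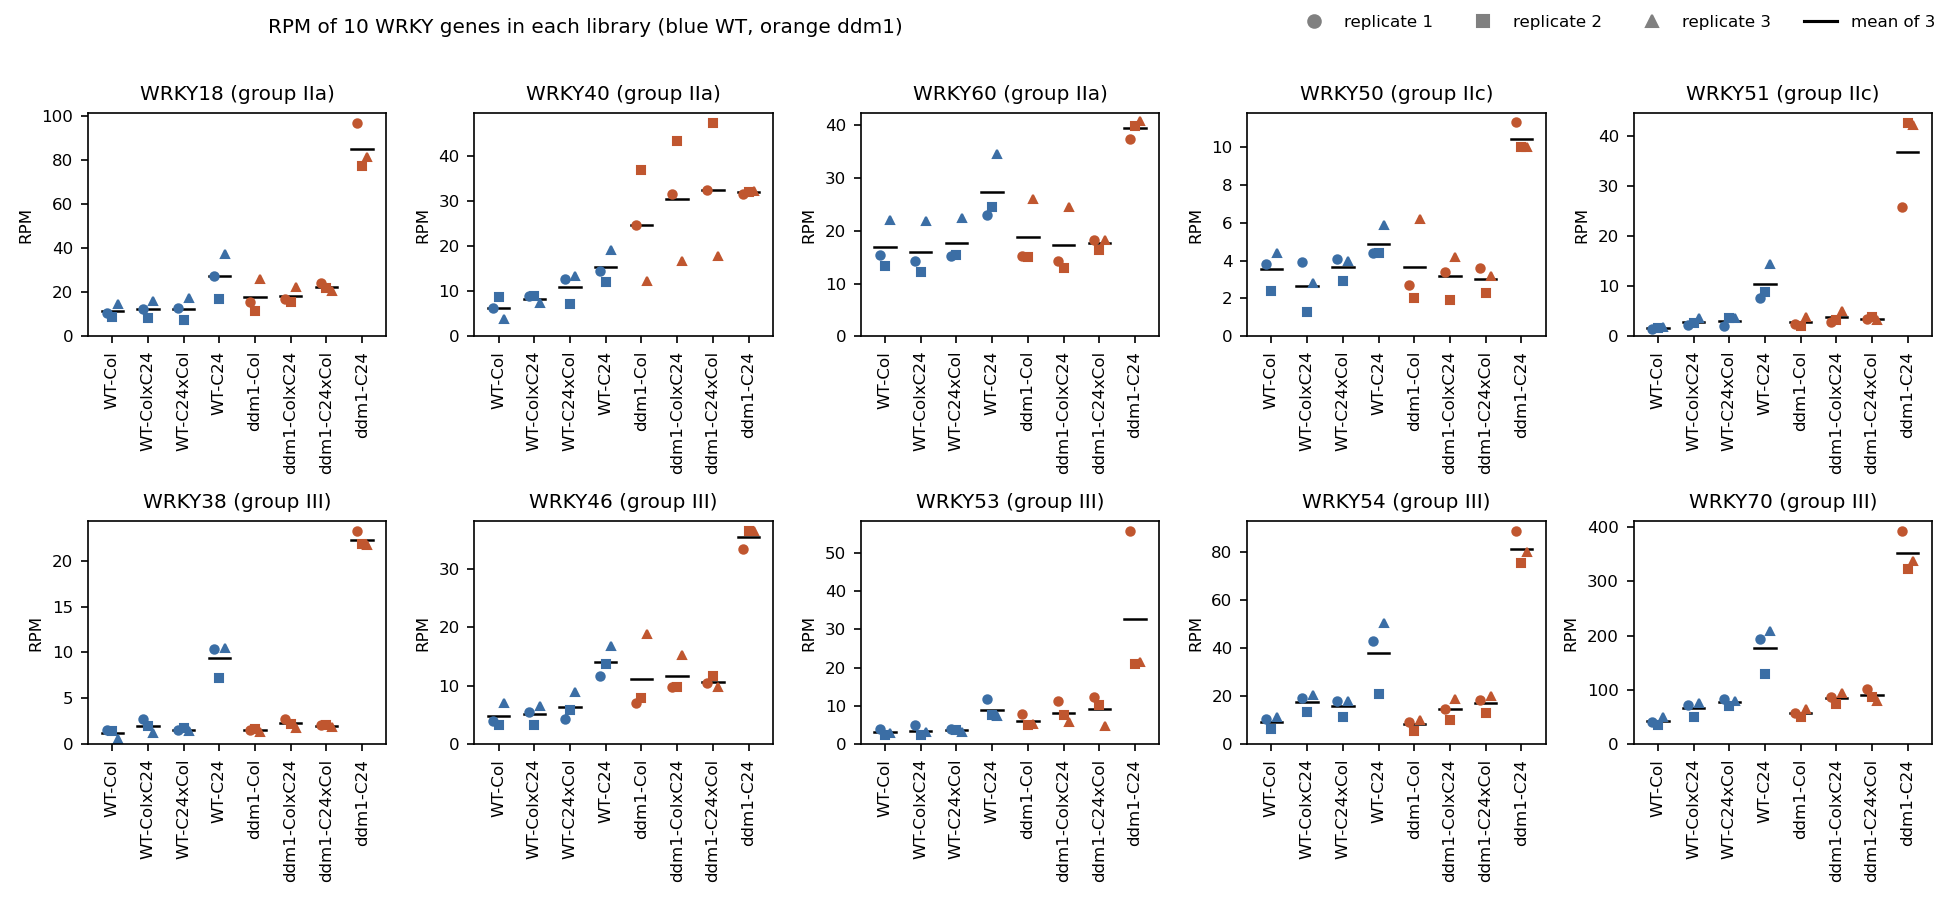
RPM (y axis, linear, from 0, a separate scale per gene) of the 10 WRKY genes in each of 24 libraries, by genotype (x axis). Symbols mark the replicate number and black bars the mean of 3 libraries. For 9 genes the libraries labelled *ddm1*-C24 lie above all others, with WRKY70 at 323.7 to 393.6 RPM, whereas WRKY40 is at similar heights in all 4 *ddm1* genotypes.

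Among the group IIa genes, WRKY18 was at 10.7, 8.6 and 14.4 RPM in replicates 1, 2 and 3 of WT-Col and at 27.5, 16.7 and 37.1 RPM in WT-C24. In the mutants WRKY18 was at 15.5, 11.4 and 25.9 RPM in *ddm1*-Col and at 96.8, 77 and 81.3 RPM in the libraries labelled *ddm1*-C24. The latter stood apart from every other library, and the 7 other genotypes overlapped with their neighbours when ordered by mean level. WRKY40, a rapidly induced relative, was at 6.3, 8.8 and 3.9 RPM in WT-Col and at 14.5, 12.1 and 19.3 RPM in WT-C24. Its mutant levels were 24.7, 37 and 12.3 RPM in *ddm1*-Col and 31.6, 32.1 and 32.3 RPM in those labelled *ddm1*-C24. No pair of neighbours in the order of the 8 genotypes was apart for WRKY40, and its mean rose in small steps from 6.33 RPM (WT-Col) to 32.6 RPM (*ddm1*-C24xCol). WRKY60 was at 15.4, 13.4 and 22 RPM in WT-Col and at 22.9, 24.6 and 34.5 RPM in WT-C24. In *ddm1*-Col WRKY60 was at 15.2, 15 and 26 RPM, close to WT-Col, and in the libraries labelled *ddm1*-C24 at 37.5, 39.9 and 40.9 RPM. These mutant C24 libraries were the 1 group of WRKY60 apart from its neighbour.

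Of the group IIc genes, WRKY50 was low throughout, at 3.8, 2.4 and 4.4 RPM in WT-Col and 4.4, 4.4 and 5.9 RPM in WT-C24, which meet at 4.4 RPM. In *ddm1*-Col it was at 2.7, 2 and 6.2 RPM, and only the libraries labelled *ddm1*-C24, at 11.3, 10 and 10 RPM, exceeded all others. WRKY51 was at 1.5, 1.6 and 1.9 RPM in WT-Col and at 7.6, 8.9 and 14.5 RPM in WT-C24. WRKY51 was at 2.5, 2.1 and 3.9 RPM in *ddm1*-Col and at 25.8, 42.5 and 42.1 RPM in those labelled *ddm1*-C24. The order of WRKY51 had 3 steps between groups that did not overlap, from WT-Col to WT-ColxC24, from *ddm1*-ColxC24 to WT-C24, and from WT-C24 to the libraries labelled *ddm1*-C24.

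In group III, WRKY38 was at 1.6, 1.4 and 0.6 RPM in WT-Col and at 10.4, 7.2 and 10.5 RPM in WT-C24. Its levels were 1.6, 1.7 and 1.3 RPM in *ddm1*-Col, overlapping WT-Col, and 23.2, 21.8 and 21.7 RPM in the libraries labelled *ddm1*-C24. Values near 1 RPM carry the 0.1 RPM step of the table. WRKY46 was at 4, 3.3 and 7.1 RPM in WT-Col and at 11.6, 13.8 and 16.8 RPM in WT-C24. In *ddm1*-Col WRKY46 was at 7, 7.9 and 18.8 RPM, with replicate 3 above every WT library, and in those labelled *ddm1*-C24 at 33.4, 36.5 and 36.4 RPM. WRKY53, a regulator of leaf senescence, was at 3.9, 2.4 and 3 RPM in WT-Col and at 11.8, 7.6 and 7.4 RPM in WT-C24. WRKY53 was at 8, 5.1 and 5.3 RPM in *ddm1*-Col and at 55.6, 20.9 and 21.5 RPM in the libraries labelled *ddm1*-C24, where replicate 1 was far above the others.

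The homologues WRKY54 and WRKY70 were both higher in every C24 library than in any Col library of the same background. WRKY54 was at 10.5, 6.2 and 11.2 RPM in WT-Col and at 42.7, 21 and 50.5 RPM in WT-C24. In *ddm1*-Col WRKY54 was at 9.1, 5.6 and 10.1 RPM, within reach of WT-Col, and in the libraries labelled *ddm1*-C24 at 88.6, 75.4 and 79.9 RPM. WRKY70 was at 41.3, 35.5 and 51 RPM in WT-Col and at 194.9, 128.9 and 208.5 RPM in WT-C24. Its mutant levels were 57.3, 50.9 and 65.6 RPM in *ddm1*-Col and 393.6, 323.7 and 337.8 RPM in those labelled *ddm1*-C24. For both genes WT-C24 was apart from the 6 genotypes under it and the libraries labelled *ddm1*-C24 were apart from WT-C24. Per kilobase of transcript, which allows genes to be compared, WRKY70 had the highest level of the 10 in every genotype, with a mean of 29 RPM per kb in WT-Col and 239 RPM per kb in the libraries labelled *ddm1*-C24. WRKY38 was the lowest in WT-Col at 0.919 RPM per kb and WRKY50 the lowest in those labelled *ddm1*-C24 at 9.64 RPM per kb.

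The first comparison asked how the accessions differ without the mutation. WT-C24 had higher levels than WT-Col for all 10 genes by mean, from 1.39-fold (WRKY50) to 7.81-fold (WRKY38). The ratio was 6.20 for WRKY51, 4.17 for WRKY70 and 4.09 for WRKY54. In a limma fit on log2(RPM + 0.5), with Benjamini-Hochberg adjustment over all tested genes and an adjusted p of 0.05 as the threshold, 3 of 10 rose, against 2.02% of all tested genes. These were WRKY51 (log2 difference 2.27, SE 0.29, adjusted p = 0.0184), WRKY38 (2.57, SE 0.32, adjusted p = 0.0184) and WRKY70 (2.03, SE 0.24, adjusted p = 0.0154). Every WT-C24 library was above every WT-Col library for 9 of 10, all but WRKY50, against 8.26% of tested genes. The median log2 difference was 1.44 over the 10 genes and 0.00 over all tested genes. Replicate numbers paired the libraries, and with the number as a block 5 were higher (3.66% of tested genes), WRKY18 (1.19, SE 0.12, adjusted p = 0.0400), WRKY53 (1.38, SE 0.13, adjusted p = 0.0350), WRKY54 (1.93, SE 0.12, adjusted p = 0.0233), WRKY51 (adjusted p = 0.0299) and WRKY70 (adjusted p = 0.0173), while WRKY38 was at adjusted p = 0.0514. Without 1 library the count fell to 0 (without WT-Col replicate 1 or 2), 1 (without any 1 of the WT-C24 replicates) or 2 (without WT-Col replicate 3). Seed storage transcripts were also higher in WT-C24, as given above, and their part in the difference was not tested. In RNA of whole seedlings, a change in the number of expressing cells and in the RNA per cell cannot be told apart.

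The same contrast was then made between the mutants, and its difference from that in WT is the test of the *ddm1* effects given after the effect in C24. The libraries labelled *ddm1*-C24 exceeded *ddm1*-Col 14.5-fold for WRKY38, 13-fold for WRKY51, 9.83-fold for WRKY54 and 6.07-fold for WRKY70, but only 1.30-fold for WRKY40. By limma 9 of 10 rose, all but WRKY40, against 7.29% of tested genes higher. The log2 difference ran from 1.1 (SE 0.25, adjusted p = 0.0290) for WRKY60 to 3.49 for both WRKY51 (SE 0.30, adjusted p = 0.000478) and WRKY38 (SE 0.20, adjusted p = 8.8e-05), and was 0.50 (SE 0.38, adjusted p = 0.498) for WRKY40. The groups did not overlap for the same 9 genes, against 16.8% of tested genes. The median was 2.25 over the 10 genes and 0.10 over all tested genes. Without *ddm1*-Col replicate 2 the count was 5, and without each other library it was 6 to 9. Rescaling by median ratios moved the median of all tested genes by more than 0.1 in this comparison, to 0.00, and left 9 of 10 called.

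The effect of *ddm1* in the Col accession was small for most of the 10 genes. WRKY40 had 3.89 times its WT-Col mean in *ddm1*-Col, WRKY46 2.34 times and WRKY53 1.98 times, whereas WRKY50 (1.03), WRKY60 (1.11) and WRKY54 (0.889) were near their WT-Col means. None passed the limma test (7.82% of tested genes were higher), with 2 of 10 at an unadjusted p under 0.05, WRKY40 (log2 difference 1.81, SE 0.47, adjusted p = 0.0872) and WRKY53 (0.88, SE 0.27, adjusted p = 0.184). Counts at an unadjusted p under 0.05, here and below, have no matching share of all tested genes. The shares given beside limma counts are at the adjusted threshold. With the replicate block 5 rose, against 10% of tested genes: WRKY40 (SE 0.12, adjusted p = 0.000173), WRKY46 (1.08, SE 0.14, adjusted p = 0.00506), WRKY53 (SE 0.12, adjusted p = 0.00512), WRKY70 (0.45, SE 0.06, adjusted p = 0.00476) and WRKY18 (0.58, SE 0.11, adjusted p = 0.0197). Each *ddm1*-Col library was above each WT-Col library for WRKY40, WRKY51 and WRKY53, 3 of 10, against 9.55%. The median of the 10 was 0.51 and of all tested genes -0.10, or 0.63 and 0.02 after rescaling by median ratios. Without *ddm1*-Col replicate 3 the WRKY46 ratio was 1.55. Without that library, the lowest of the group for WRKY40, that gene passed the test (adjusted p = 0.0341, beside up to 0.303 without other single libraries).

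In C24 all 10 genes had higher means in the mutant. The mean in the libraries labelled *ddm1*-C24 was 3.66 times that of WT-C24 for WRKY53, 3.56 times for WRKY51, 3.14 times for WRKY18, 2.52 times for WRKY46 and 1.98 times for WRKY70, and the lowest ratio was 1.44 for WRKY60. Of the 10 genes 7 rose, against 8.61% of tested genes higher: WRKY46 (log2 difference 1.32, SE 0.18, adjusted p = 0.00544), WRKY38 (1.22, SE 0.20, adjusted p = 0.0134), WRKY51 (1.80, SE 0.32, adjusted p = 0.0191), WRKY18 (1.70, SE 0.30, adjusted p = 0.0191), WRKY40 (1.07, SE 0.20, adjusted p = 0.0235), WRKY50 (1.03, SE 0.20, adjusted p = 0.0286) and WRKY70 (1.01, SE 0.23, adjusted p = 0.0493). WRKY53 (1.69, SE 0.44, adjusted p = 0.0801) passed with the block (adjusted p = 0.0149, 8 of 10 called, 9.97% of tested genes), and WRKY54 (1.17, SE 0.34, adjusted p = 0.114) and WRKY60 (0.54, SE 0.19, adjusted p = 0.199) did not. All 10 genes had every library labelled *ddm1*-C24 above every WT-C24 library, against 14.1% of tested genes. The median was 1.20 over the 10 and 0.03 over all tested genes. The sum of the seed storage genes was lower in these libraries than in WT-C24. The WRKY53 ratio was 2.37 without *ddm1*-C24 replicate 1, under those of WRKY51 (4.09), WRKY18 (2.92) and WRKY46 (2.59) in the same libraries. The count of 7 was 6 without WT-C24 replicate 3, 4 without WT-C24 replicate 2, 3 without *ddm1*-C24 replicate 1, 2 without WT-C24 replicate 1 and 1 without *ddm1*-C24 replicate 2 or 3, and with the close replicates 2 and 3 taken as their mean it was 1, WRKY46.

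Whether *ddm1* acted differently in the accessions was tested as the difference of both effects. None of the 10 passed by limma (5.06% of tested genes did, in either direction), with 5 at an unadjusted p under 0.05. The difference was above 0 for 9 genes, with a median of 0.86 against 0.12 over all tested genes (0.78 and 0.01 after rescaling), and was -0.75 (SE 0.53, adjusted p = 0.844) for WRKY40. With the replicate block 3 of 10 had a larger rise in C24, WRKY54 (1.33, SE 0.24, adjusted p = 0.00512), WRKY51 (1.21, SE 0.26, adjusted p = 0.0129) and WRKY18 (1.12, SE 0.27, adjusted p = 0.0203), against 7.17% of tested genes. WRKY54 was 0.889 times its WT-Col mean in *ddm1*-Col and 2.14 times its WT-C24 mean in the libraries labelled *ddm1*-C24. Without *ddm1*-Col replicate 3 the count was 1.

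**Figure D2:**
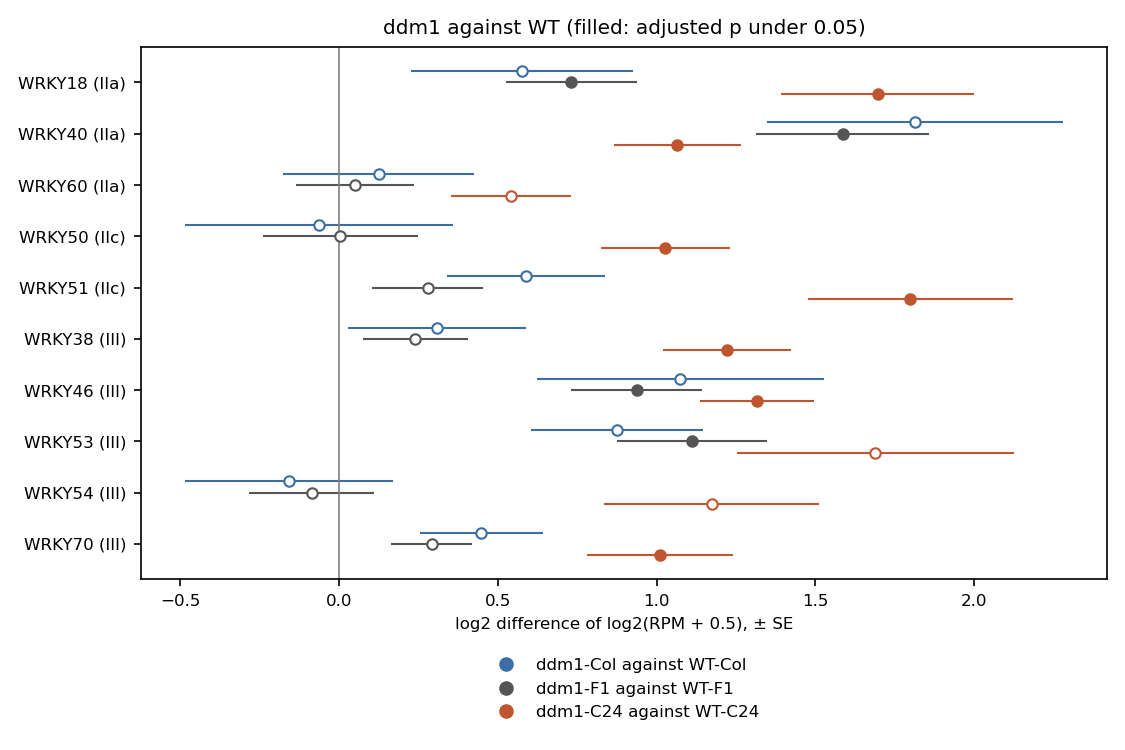
Log2 difference of *ddm1* against WT on the log2(RPM + 0.5) scale (x axis, points; bars ± SE) for the 10 genes (y axis, with structural group) in Col, in the hybrids and in C24. Filled points had an adjusted p under 0.05: 0 in Col, 4 in the hybrids and 7 in C24. In C24 the 10 values range from 0.54 (WRKY60) to 1.80 (WRKY51), and in the hybrids from -0.09 (WRKY54) to 1.59 (WRKY40).

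Among hybrids, the mutation went with higher levels of 4 genes. WRKY40 was at 7.1, 8.9 and 13.4 RPM (lowest, median and highest of 6) in WT-F1 and at 16.7, 32.1 and 47.5 RPM in *ddm1*-F1, without overlap. WRKY46 was at 3.3, 5.65 and 9 RPM in WT-F1 and at 9.7, 10.2 and 15.3 RPM in *ddm1*-F1, also without overlap. These were the 2 of 10 with every *ddm1*-F1 library above every WT-F1 library, against 8.68% of tested genes. WRKY53 was at 2.4, 3.5 and 4.9 RPM in WT-F1 and at 4.8, 8.9 and 12.2 RPM in *ddm1*-F1, where only the lowest and highest libraries met. WRKY18 was at 7.4, 12.7 and 17.3 RPM in WT-F1 and at 15.7, 21.1 and 24.3 RPM in *ddm1*-F1. Limma called these 4, against 9.23% of tested genes higher, at log2 differences of 1.59 (SE 0.27, adjusted p = 0.000766) for WRKY40, 1.11 (SE 0.24, adjusted p = 0.00466) for WRKY53, 0.94 (SE 0.21, adjusted p = 0.00643) for WRKY46 and 0.73 (SE 0.21, adjusted p = 0.0370) for WRKY18. With the block, where 13.5% of tested genes were higher, WRKY70 joined them (0.29, SE 0.09, adjusted p = 0.0261). WRKY54, at 11.2, 18.1 and 20.3 RPM in WT-F1 and 10, 16.5 and 20 RPM in *ddm1*-F1, was at -0.09 (SE 0.20, adjusted p = 1), WRKY50 at 0.00 (SE 0.24, adjusted p = 1) and WRKY60 at 0.05 (SE 0.19, adjusted p = 1). The median of the 10 was 0.29 and of all tested genes -0.03. Leaving out single libraries gave 3 or 4 calls, and WRKY18 was not called without any 1 of 8 of the 12 libraries (adjusted p up to 0.0921).

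Hybrids were then set against the mid-parent value (MPV), the arithmetic mean of the same-numbered parents, which asks whether a hybrid departs from the average of its parents. In the mutant background 9 of the 10 genes lay under every MPV in every hybrid library, against 5.14% of tested genes, and WRKY40 did not. WRKY38 was at 1.8, 2.1 and 2.8 RPM (lowest, median and highest) in *ddm1*-F1 against MPVs of replicate numbers 1, 2 and 3 of 12.4, 11.8 and 11.5 RPM. WRKY51 was at 2.9, 3.35 and 5.1 RPM against MPVs of 14.2, 22.3 and 23 RPM. The hybrids thus had a small fraction of the parental average of both genes. WRKY54 was at 10, 16.5 and 20 RPM against MPVs of 48.9, 40.5 and 45 RPM. WRKY70 was at 74.7, 87.5 and 102.4 RPM against MPVs of 225.5, 187.3 and 201.7 RPM. WRKY60 was closer to its MPVs, at 12.9, 17.3 and 24.5 RPM against 26.4, 27.5 and 33.5 RPM. WRKY50 was at 1.9, 3.3 and 4.2 RPM against 7, 6 and 8.1 RPM. Limma gave 7 of 10 lower, against 2.11% of tested genes: WRKY51 (log2 difference -2.29, SE 0.21, adjusted p = 0.000793), WRKY38 (-2.23, SE 0.15, adjusted p = 0.000235), WRKY54 (-1.50, SE 0.22, adjusted p = 0.00639), WRKY18 (-1.33, SE 0.17, adjusted p = 0.0029), WRKY70 (-1.22, SE 0.13, adjusted p = 0.00123), WRKY50 (-1.09, SE 0.23, adjusted p = 0.0410) and WRKY46 (-1.04, SE 0.18, adjusted p = 0.0142). With the block, where 15% of tested genes were lower, WRKY60 (-0.75, SE 0.11, adjusted p = 0.001) and WRKY53 (-1.07, SE 0.15, adjusted p = 0.000572) were also lower. WRKY40 was at 0.07 (SE 0.34, adjusted p = 1). The median was -1.16 over the 10 and -0.07 over all tested genes. WRKY18, WRKY50, WRKY51, WRKY38, WRKY46 and WRKY70 were also in lists that the study drew from these same libraries for departure from the MPV, so for them the direction is not independent evidence. With the MPV taken as a mean of log2 values the count was 4, and without single libraries 5 to 8.

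Wild-type hybrids were set against their MPV in the same way. WRKY38 was at 1.2, 1.65 and 2.8 RPM in WT-F1 against MPVs of 6, 4.3 and 5.55 RPM, and WRKY51 at 2, 3.1 and 3.6 RPM against 4.55, 5.25 and 8.2 RPM. These and WRKY53 were the 3 of 10 with every hybrid library under every MPV, against 1.12% of tested genes. None passed by limma at the adjusted threshold, where 0.0627% of tested genes were lower. At an unadjusted p under 0.05 were 5 of 10, for which no matching share of all tested genes is given. WRKY38 had the largest drop, -1.36 (SE 0.21, adjusted p = 0.219). With the block 2 were lower, against 0.367% of tested genes, WRKY18 (-0.61, SE 0.06, adjusted p = 0.0292) and WRKY51 (-0.91, SE 0.12, adjusted p = 0.0488). All 10 values were under 0, from -0.19 for WRKY40, with a median of -0.61 against -0.07 over all tested genes. Whether the departure differed between the backgrounds was not tested.

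By mean RPM the hybrids lay nearer to Col than to C24, except for WRKY40 in the *ddm1* background. The places below are on the RPM scale, not the log2 scale of the tests. On the scale from the Col mean (0%) to the C24 mean (100%), *ddm1*-F1 lay at 10.4% for WRKY54, 10.1% for WRKY70, 9.36% for WRKY53, 3.91% for WRKY18, 2.98% for WRKY38, 2.36% for WRKY51 and -0.413% for WRKY46. WRKY60 was at -6.36% and WRKY50 at -7.84%, and neither side of the Col parent held over the replicate numbers, with 4.93%, -1.61% and -31.2% for WRKY60 and 9.3%, 1.25% and -65.8% for WRKY50 in numbers 1, 2 and 3. WRKY46 likewise ran from -35.5% to 11.9%. WRKY40 lay at 94.5% by its means, but its parents differed only 1.30-fold and the numbers gave 107%, -172% and 25%, so its place between the parents was not resolved. WT-F1 lay at 25.9% for WRKY54, 21.8% for WRKY70, 14.6% for WRKY51, 10.3% for WRKY46, 8.29% for WRKY53, 7.25% for WRKY18, 7.14% for WRKY38 and 37.7% for WRKY40. WRKY60 was at -0.481%, and WRKY50, whose parents differed 1.39-fold, at -26.8% (33.3%, -15% and -66.7% by number). WRKY40 in WT was at 54.9%, -24.2% and 41.9% by number.

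**Figure D3:**
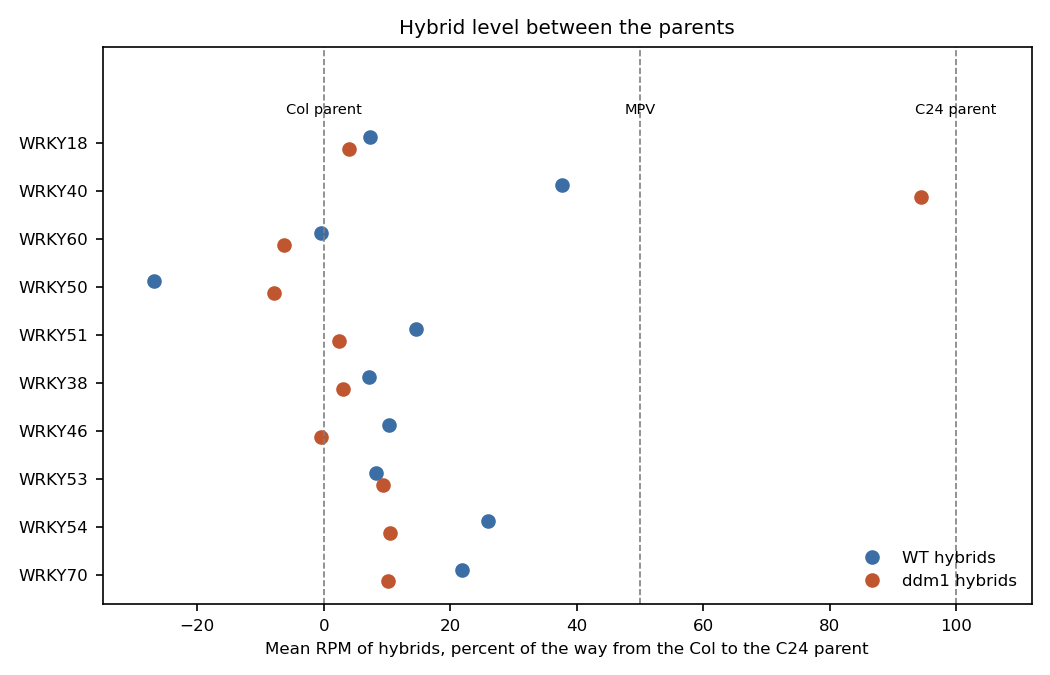
Mean RPM of 6 hybrid libraries placed between the parental means (x axis, percent of the way from Col at 0 to C24 at 100, MPV at 50) for the 10 genes (y axis), WT in blue and *ddm1* in orange. Except for WRKY40 in the *ddm1* background (94.5%, but 107%, -172% and 25% by replicate number), every point is at the Col side of the MPV. The spread over replicate numbers is not drawn.

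Against the C24 parent, *ddm1*-F1 was lower for 9 of 10 genes by limma, all but WRKY40, against 8.59% of tested genes, and the same 9 did not overlap (11.5% of tested genes). The drop was from -1.18 (SE 0.19, adjusted p = 0.00183) for WRKY60 to -3.16 (SE 0.22, adjusted p = 6.4e-06) for WRKY51, and the count was 9 without each single library. WT-F1 was lower than WT-C24 for 4 of 10, against 1.03% of tested genes, WRKY38 (-2.13, SE 0.23, adjusted p = 0.00181), WRKY51 (-1.64, SE 0.26, adjusted p = 0.0153), WRKY70 (-1.28, SE 0.20, adjusted p = 0.0116) and WRKY53 (-1.20, SE 0.23, adjusted p = 0.0376). With the block 8 were lower, all but WRKY40 and WRKY50, against 10% of tested genes. In 8 of 10 genes all WT-F1 libraries were under all WT-C24 libraries (3.49% of tested genes), WRKY18 and WRKY40 being the exceptions. The count of 4 became 1 without WT-C24 replicate 3 and 2 without WT-C24 replicate 1.

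Against the Col parent none of the 10 passed by limma in either background. In WT, where 0.721% of tested genes were higher, 3 of 10 were at an unadjusted p under 0.05, and these passed with the block (2.82% of tested genes higher): WRKY54 (0.83, SE 0.08, adjusted p = 0.00483), WRKY70 (0.75, SE 0.11, adjusted p = 0.0166) and WRKY51 (0.64, SE 0.12, adjusted p = 0.0285). In *ddm1*, where 1.22% of tested genes were higher, 3 of 10 were at an unadjusted p under 0.05 (WRKY38, WRKY54 and WRKY70), and with the block (8.60% higher) WRKY54 (0.90, SE 0.10, adjusted p = 9.08e-05), WRKY70 (0.59, SE 0.08, adjusted p = 0.000514) and WRKY40 (0.38, SE 0.06, adjusted p = 0.00116) were higher. The homologues WRKY54 and WRKY70 were thus above the Col parent in both backgrounds when replicate numbers were blocked. All WT-F1 libraries exceeded all WT-Col libraries for WRKY51 and WRKY70, 2 of 10 (1.92% of tested genes), and all *ddm1*-F1 libraries exceeded all *ddm1*-Col libraries for WRKY38 and WRKY70, again 2 of 10 (2.78%). Without WT-ColxC24 replicate 2 the WT count was 1. The parents here are those behind the MPV, so these comparisons are not separate evidence.

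No difference between the directions of the cross was detected. None of the 10 genes was called between WT-C24xCol and WT-ColxC24 (0.0224% of tested genes) or between *ddm1*-C24xCol and *ddm1*-ColxC24 (0% of tested genes). The same held with the block (0.0224% and 0.932% of tested genes). At an unadjusted p under 0.05 were 0 of 10 in both backgrounds without the block, and with it 0 in WT and 2 in *ddm1*, WRKY18 and WRKY54. The largest differences were 0.48 (SE 0.38, adjusted p = 1) for WRKY50 in WT and 0.28 (SE 0.21, adjusted p = 1) for WRKY18 in *ddm1*.

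Libraries with the same replicate number deviated together. Over all tested genes the number accounted for a median of 51.9% of the variation of log2(RPM + 0.5) and the genotype for 28.4%, whereas over the 10 genes the medians were 8.39% and 85.9%. The genotype share ran from 69.6% (WRKY50) to 96.5% (WRKY38). Some genes still followed the number: WRKY53 was highest in replicate 1 in 8 of 8 genotypes, and WRKY54 was lowest in replicate 2 in 8 of 8. Between numbers 3 and 1, 6 of 10 were called, against 76.8% of tested genes. WRKY53 fell by 0.73 (SE 0.13, adjusted p = 6.09e-05) and WRKY38 by 0.36 (SE 0.12), while WRKY60, WRKY51, WRKY46 and WRKY18 were higher in number 3. These directions depended on the scaling. Rescaling by median ratios moved the median of all tested genes in this contrast from 0.27 to 0.00 and that of the 10 from 0.13 to -0.17, and the calls went from 4 higher and 2 lower to 1 higher (WRKY51) and 5 lower. It turned WRKY18 to -0.04, WRKY54 to -0.20 and WRKY70 to -0.30.

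Across the 8 genotype means most of the 10 genes varied together. Pearson's r over the 45 pairs had a median of 0.901 (range 0.374 to 0.990, n = 8 genotypes that share the parents' alleles and the replicate numbers). For all but WRKY40 the highest mean was in the libraries labelled *ddm1*-C24, so that genotype weighs heavily on r. The r of pairs of other genes is not given for comparison. WRKY40 was the least like the others, with a median r of 0.534 to the other 9. Among 16165 other genes with enough signal, those closest in pattern to the mean of group IIa were AT3G48650 (r = 0.996), MYB51 (r = 0.991), a regulator of indole glucosinolates, and BAP1 (r = 0.988), a suppressor of cell death. For group IIc they were AT5G48657, CNGC13 and AT1G67520 (r = 0.999, 0.998 and 0.998). For group III they were SAG101 (r = 0.997), a partner of EDS1 in defence, AT1G55450 (r = 0.996) and PR5 (r = 0.996), a marker of the SA response. PR5 was at a mean of 10.4 RPM in WT-Col, 49.7 RPM in WT-C24, 16.2 RPM in *ddm1*-Col and 193 RPM in the libraries labelled *ddm1*-C24.

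Genes around the 10 were read from lists of SA synthesis, SA output, rapid wound and elicitor response, jasmonate and ethylene output, leaf senescence and the other WRKY genes. Genes of SA synthesis and its activation rose in 4 of 14 in WT-C24 against WT-Col (2.02% of tested genes were higher), 7 of 14 in the libraries labelled *ddm1*-C24 relative to WT-C24 (8.61%) and 0 of 14 in *ddm1*-Col against WT-Col (7.82%) by limma. With the block these were 6 higher and 1 lower, 8 higher, and 1 higher (3.66%, 9.97% and 10% of tested genes higher). ICS1, the main enzyme of SA synthesis, was 1.41 (SE 0.16, adjusted p = 0.0138) higher in WT-C24, and PBS3, which conjugates its product, 2.08 (SE 0.19, adjusted p = 0.000777) higher in the libraries labelled *ddm1*-C24. SA perception and output genes rose in 4 of 14, 5 of 14 and 0 of 14 in the same comparisons and with the block in 6, 8 and 2, the last beside 1 lower. They were led by PR1, the classical SA marker, at 3.34 (SE 0.50, adjusted p = 0.0316) and 2.38 (SE 0.32, adjusted p = 0.00509). Against the *ddm1* MPV, 9 of 14 synthesis genes and 4 of 14 output genes were lower in *ddm1*-F1, against 2.11% of tested genes, and with the block 11 of 14 in both lists, against 15%. The values were -2.67 (SE 0.27, adjusted p = 0.000907) for PR1 and -2.08 (SE 0.26, adjusted p = 0.00303) for PBS3. The study drew SA genes of this kind from these samples, so those directions are not independent evidence.

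The rapid wound and elicitor list, of genes that touch, wounding or elicitors induce within minutes, moved otherwise. In *ddm1*-Col 7 of 17 rose (16 with the block), beside 7.82% and 10% of tested genes, with a list median of 1.33, led by the transcription factor genes ERF105 (2.34, SE 0.39, adjusted p = 0.0104), ZAT10 (1.96, SE 0.41, adjusted p = 0.0344) and ERF6 (1.95, SE 0.40, adjusted p = 0.0294). In *ddm1*-F1 against WT-F1 5 of 17 rose (15 with the block), beside 9.23% and 13.5% of tested genes, with a median of 0.95 and SZF1 at 1.67 (SE 0.28, adjusted p = 0.000594). In the libraries labelled *ddm1*-C24 relative to WT-C24 2 rose and 1 fell (3 and 1 with the block), with a median of 0.48. Of 22329 tested genes 8.61% were higher and 252 lower there (9.97% and 542 with the block). WRKY40, WRKY46 and WRKY53, which had the largest values of the 10 in *ddm1*-Col and in *ddm1*-F1, moved beside this list, and its part in their values was not tested. Jasmonate and ethylene output genes were lower in 5 of 12 and higher in 1 of 12 in the libraries labelled *ddm1*-C24 against *ddm1*-Col. With the block 6 were lower. Of 22329 tested genes 1352 were lower and 1628 higher in this comparison, or 2957 and 4187 with the block. The vegetative storage protein gene VSP2 was at -4.78 (SE 0.68, adjusted p = 0.00413). Without the mutation, in WT-C24 against WT-Col, VSP2 was already at -4.83 (SE 0.77, adjusted p = 0.0386). Leaf senescence genes rose in 1 of 6 tested in the libraries labelled *ddm1*-C24 relative to WT-C24 (SAG13, 1.07, SE 0.24, adjusted p = 0.0470), beside 8.61% of all tested genes. With the block 2 rose, beside 9.97%.

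**Figure D4:**
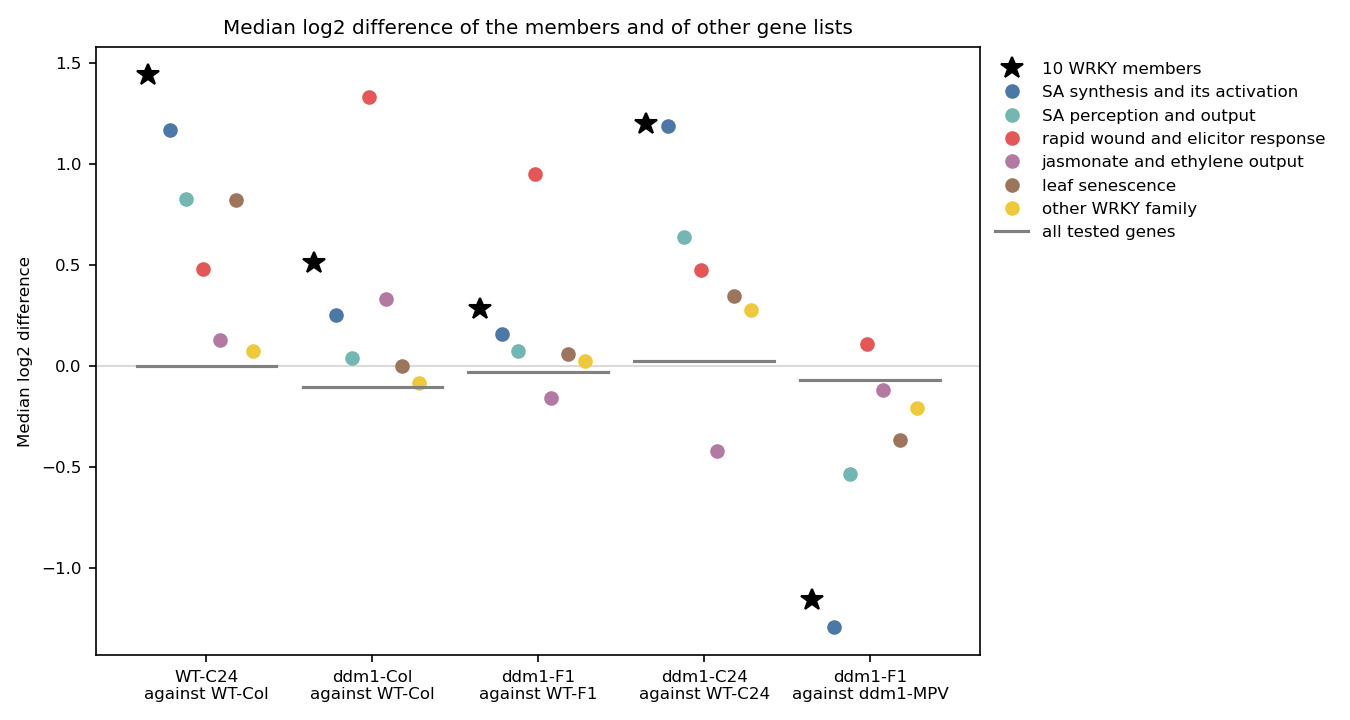
Median log2 difference on the log2(RPM + 0.5) scale (y axis) of the 10 WRKY genes (stars), of 6 other lists (coloured points) and of all tested genes (grey lines) in 5 comparisons (x axis). The 10 genes are at 1.44, 0.51, 0.29, 1.20 and -1.16 from left to right, and the rapid wound and elicitor list is above them at 1.33 in *ddm1*-Col and 0.95 in *ddm1*-F1 against WT-F1.

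The rest of the WRKY family was read in the same comparisons. Of 57 other WRKY genes tested, 7 rose and 0 fell in the libraries labelled *ddm1*-C24 relative to WT-C24. Of all tested genes 8.61% were higher there, and annotated pseudogenes made up 67.8% of those. With the block 15 of the 57 were higher and 1 lower, beside 9.97% of all tested genes higher. The median of the 57 was 0.28, beside 1.20 for the 10 genes. The largest were WRKY62 (2.39, SE 0.41, adjusted p = 0.0162), the partner of WRKY38 in restraining basal defence, WRKY59 (1.96, SE 0.27, adjusted p = 0.00582) and WRKY75 (1.85, SE 0.37, adjusted p = 0.0298). In WT-C24 against WT-Col 3 rose and 1 fell (7 and 1 with the block). Of 22329 tested genes 2.02% were higher and 399 lower there (3.66% and 705 with the block). The 1 that fell was WRKY19 (-4.76, SE 0.32, adjusted p = 0.00248). In *ddm1*-Col against WT-Col 0 were called by limma, beside 7.82% of tested genes higher. With the block 4 were higher and 3 lower, beside 10% of tested genes higher and 1940 lower. In *ddm1*-F1 against the MPV 3 of 57 were lower (21 with the block), beside 2.11% of all tested genes (15% with the block). The 3 were WRKY58 (-1.71, SE 0.25, adjusted p = 0.00636), WRKY59 (-1.63, SE 0.18, adjusted p = 0.0016) and WRKY8 (-1.09, SE 0.20, adjusted p = 0.0181). WRKY33, which belongs to the rapid wound list, is counted in both.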

How the data were processed

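RNA was sequenced from 24 libraries of 8 genotypes, 3 per genotype. The authors trimmed the reads, aligned them with TopHat to the TAIR10 genome, used HTSeq for the counts of each gene, and deposited RPM values rounded to 0.1. Settings of the counting, strand use and tool versions are not given in the sources used here. Reads of C24 were aligned to a Col genome as well, and the part of that in differences between the accessions was not tested. Whole reads could not be recovered from the rounded RPM, so the RPM do not give the depth of each library. The paper refers to a supplementary table of sequencing statistics, whose values were not used in the fits. The count test that the authors describe was not applied. The bisulfite samples were not analysed here.

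The filter on low values (1 RPM or more in 3 or more libraries) kept 22329 of 28437 genes. Values were put on the scale log2(RPM + 0.5), on which fold changes of low genes are understated. Each comparison was fitted on its own libraries with limma 3.58.1 in R 4.3.3 (mean-variance trend, two-sided), with Benjamini-Hochberg adjustment over all tested genes and a threshold of 0.05. The fit was tested on simulated data first. MPVs were arithmetic means of RPM of same-numbered parents. Tables and figures used Python 3.11.15, numpy 2.4.6, pandas 2.3.3 and matplotlib 3.10.9.

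Replicate numbers come from the labels. Deviations from the genotype means correlated at a mean r of 0.757 between same-numbered libraries of different genotypes (84 pairs, lowest 0.159). Between different numbers the mean r was -0.36 (168 pairs, highest 0.731). The numbers were therefore taken to pair the libraries. The blocked value is printed beside a result where it changed a call of the 10 genes or moved a list count given there. For replicate 2 of the libraries labelled *ddm1*-C24 this pairing is doubtful. Its factor in the rescaling by median ratios was 1.10, near 1.12 in replicate 3, beside 0.94 to 1.05 in number 2 of the other genotypes. Blocked results that use these libraries carry that doubt. The paper states that the genotypes were grown on plates in triplicate. Neither it nor the labels say that each library of a genotype came from a separate culture. The p-values thus measure the spread between these samples, which may be technical.

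All 10 genes were named in every comparison. Of the other lists, at most 3 genes per list and comparison were named, those with the largest differences among the genes called, and 3 genes per structural group with the highest Pearson's r over genotype means among genes with a mean of at least 5 RPM. The members and lists were chosen with earlier results of these data known. Alternatives were the replicate block, rescaling by median ratios, both together, pseudocounts of 0.1 and 1, no filter, all 8 genotypes in 1 fit, the MPV as a mean of log2 values, the mean of *ddm1*-C24 replicates 2 and 3 as 1 sample, and leaving out single libraries.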

Additional observations from a re-analysis of the deposited data

Results flagged for a closer look

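In 20 groups of 6 hybrid libraries (10 genes in 2 backgrounds), 1 had a library far from the others on the RPM scale and 2 on the log2 scale, where chance gives about 1 in 20. WRKY46 was at 15.3 RPM in *ddm1*-ColxC24 replicate 3, the highest of the 6 *ddm1*-F1 libraries, and the gap to the next was 0.643 of the range on the RPM scale and 0.591 on the log2 scale. WRKY50 was at 1.3 RPM and WRKY70 at 51.1 RPM in WT-ColxC24 replicate 2, the lowest of the 6 WT-F1 libraries for both genes. The gap was 0.646 of the range for WRKY50 and 0.639 for WRKY70 on the log2 scale, and 0.536 and 0.582 on the RPM scale.

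The effect of *ddm1* differed between C24 and Col for 3 genes in the limma fit with the replicate block. The difference of the log2 effects was 1.33 for WRKY54 (adjusted p = 0.00512), 1.21 for WRKY51 (adjusted p = 0.0129) and 1.12 for WRKY18 (adjusted p = 0.0203), each with the larger rise in C24. Without the block the same differences had adjusted p-values of 0.242, 0.207 and 0.393. They rest on the libraries labelled *ddm1*-C24, in which the *DDM1* transcript was not lower than in WT-C24 and 1304 of 1734 tested pseudogenes rose. These differences also rest on pairing by number, and replicates 2 and 3 of those libraries were the closest of all 276 pairs.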

How the results depend on the processing

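Counts of the genes called stayed within 1.5 times the reported count under 88 of 109 alternatives other than leaving out single libraries. With the replicate block the count was 5 for *ddm1*-Col against WT-Col, 5 for WT-C24 against WT-Col, 3 for the difference of the *ddm1* effects, 2 for WT-F1 against the MPV, 3 for WT-F1 against WT-Col, 8 for WT-F1 against WT-C24 and 3 for *ddm1*-F1 against *ddm1*-Col. With the block and rescaling together these counts were 6, 6, 3, 1, 3, 8 and 3. The block changed no other call of the 10 genes than those given beside the results. With all 8 genotypes in 1 fit the count was 1 for *ddm1*-Col against WT-Col, 7 for WT-C24 against WT-Col, 1 for WT-F1 against the MPV, 1 for WT-F1 against WT-Col and 7 for WT-F1 against WT-C24. It was 4 for *ddm1*-F1 against the MPV when the MPV was a mean of log2 values, and 1 for *ddm1*-C24 against WT-C24 with *ddm1*-C24 replicates 2 and 3 averaged, which leaves fewer samples. The cause of the other changes was not tested.

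Without single libraries the count ranged from 0 to 1 for *ddm1*-Col against WT-Col, 1 to 6 for *ddm1*-C24 against WT-C24, 0 to 2 for WT-C24 against WT-Col, 5 to 9 for *ddm1*-C24 against *ddm1*-Col, 0 to 1 for the difference of the *ddm1* effects, 0 to 1 for WT-F1 against WT-Col and 1 to 4 for WT-F1 against WT-C24. Where a group was left with 2 samples the spread was pooled over the groups of the fit. In *ddm1*-C24 against WT-C24, WRKY46 was called under every alternative run (adjusted p up to 0.0429), and WRKY70 in none of the 6 fits without 1 library. WRKY50 in *ddm1*-F1 against the MPV was lost without any of 11 of the 12 libraries. For single genes, 3 values reversed, all between replicate numbers 3 and 1 after rescaling by median ratios, WRKY18 at -0.037, WRKY54 at -0.20 and WRKY70 at -0.30, while 2319 kept their call, 79 gained it and 129 lost it. RPM without read counts give no counting error, and levels near 1 RPM are limited by the 0.1 RPM step.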
